A study of Mus musculus with 12 samples.

Results

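The 40 genes described here act in the cell cycle and in DNA replication. They were chosen by symbol, from a list of names, among the 51826 gene entries of the count table, and all 40 were found and passed the filter on low counts in every comparison. By role they are 9 licensing and helicase genes (Mcm2, Mcm3, Mcm4, Mcm5, Mcm6, Mcm7, Mcm10, Cdc6, Gins2), 4 genes of the replication fork and nucleotide supply (Pcna, Rrm1, Rrm2, Tyms), 2 proliferation markers (Mki67, Top2a), 8 G1 cyclins and kinases (Ccnd1, Ccnd2, Ccnd3, Ccne1, Ccne2, Cdk2, Cdk4, Cdk6), 3 inhibitors of cyclin-dependent kinases (Cdkn1a, Cdkn1b, Cdkn1c), 2 E2F factors (E2f1, E2f8), 4 mitotic cyclins and Cdk1 (Ccna2, Ccnb1, Ccnb2, Cdk1) and 8 genes of mitotic kinases, spindle and checkpoint (Aurka, Aurkb, Bub1, Birc5, Cdc20, Plk1, Kif11, Cenpf).

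The study models the heart disease of myotonic dystrophy type 1, in which an expanded CUG repeat in DMPK mRNA disturbs RNA-binding proteins. CUG960 mice were homozygous for TREDT960I, a tetracycline-responsive transgene with 960 interrupted CUG repeats in human DMPK exons, and hemizygous for MHCrtTA, in which the α-myosin heavy chain promoter drives the reverse tetracycline transactivator in cardiomyocytes. Controls were hemizygous for MHCrtTA alone. All mice were FvB, labelled female and 10 weeks old, and both genotypes were given dox chow from postnatal day 1, so that dox and transactivator were shared and the repeat transgene was not. Atria and ventricles of the same 6 mice (controls V327, V333 and V334, CUG960 +dox mice V119, V120 and V123) gave 12 RNA-Seq libraries, 3 in each of 4 groups. Levels are given as CPM, counts per 1e6 counts of the TMM-scaled library size. Depth was 136770774 to 149950077 counts in control atria, 116127966 to 134863462 in CUG960 atria, 129140369 to 133480610 in control ventricles and 140987828 to 160676189 in CUG960 ventricles. The genotypes therefore did not overlap in depth, with fewer counts in CUG960 atria and more in CUG960 ventricles. On average 1 CPM stood for 110 counts in control ventricles, the fewest of the 4 groups.

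A cell that enters the cycle from rest first makes D-type cyclins, which with Cdk4 and Cdk6 inactivate the retinoblastoma protein and so release E2F factors. These switch on cyclin E and the genes that load and fire replication origins, among them the MCM2-7 helicase, and later waves bring the mitotic cyclins and kinases. Most cardiomyocytes leave the cycle soon after birth. In bulk RNA, fewer cells of a type and less RNA per cell cannot be told apart.

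The atrial markers Myl7, Myl4 and Sln and the ventricular markers Myl2 and Myl3 followed the chamber labels in all 12 libraries. The ventricular library of mouse V123 stood apart in its atrial markers, with Myl7 at 55.8 CPM against 0.192 and 0.305 CPM in V119 and V120 and 4.95 to 19.3 CPM in control ventricles. Atria held between 2532 and 3318 CPM of Myl7. The atrial library of V327 had the highest Myl2 among the atria, at 33.5 CPM against 8.80 to 11.7 CPM in the others, where ventricles held 8484 to 10474 CPM.

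Compared with controls, CUG960 +dox ventricles had more mRNA of 6 of the 40 genes and less of 1. Cyclin E1 (Ccne1) rose 5.40-fold, cyclin D2 (Ccnd2) 2.99-fold, E2f1 2.63-fold, Mcm2 2.44-fold, Mcm7 1.73-fold and Mcm5 1.60-fold, and Cdk6 fell 1.61-fold. In atria only the 2 cyclins passed, Ccne1 at 4.78-fold and Ccnd2 at 1.74-fold. Mki67, Top2a, the mitotic cyclins, Cdk1 and the mitotic kinases passed in neither chamber. A gene was called at an adjusted P value under 0.05 (edgeR quasi-likelihood test, Benjamini-Hochberg over all genes tested) with a fold limit of 1.5. In ventricles 3.0% of the 16909 genes tested were called higher and 1.76% lower. In atria 3.37% of 17650 were called higher and 2.12% lower. The median log2 fold change of the 40 genes was −0.14 in atria and 0.12 in ventricles, beside −0.01 over all genes tested in each chamber. Without V123, 7 genes were called in ventricles and 3 in atria, beside 4.09% and 4.79% of all genes called in those fits.

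**Figure D1:**
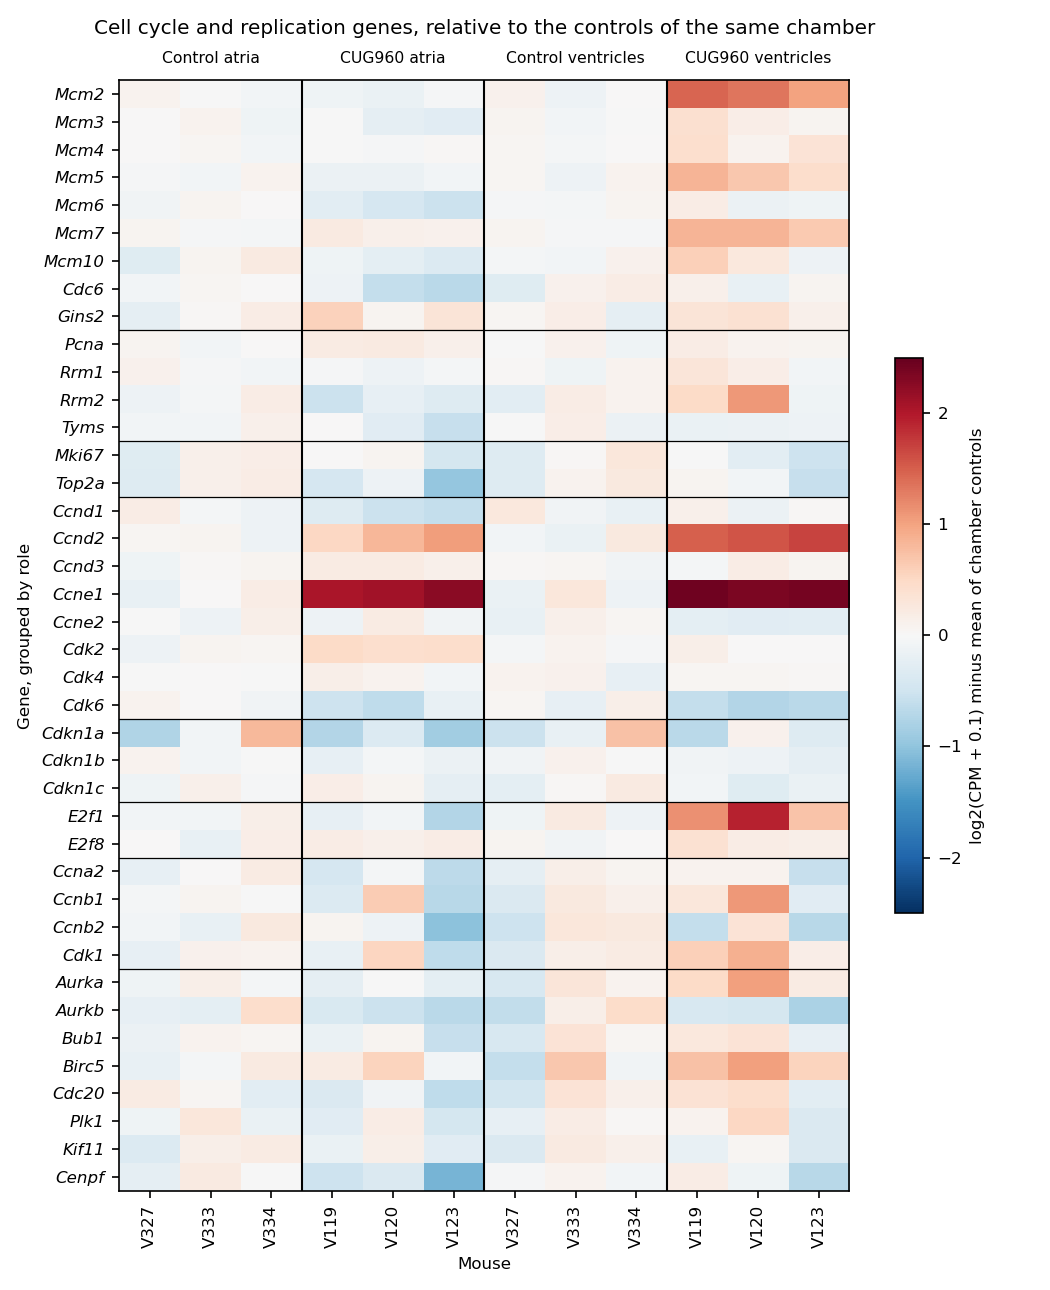
Level of each of the 40 genes (rows, in blocks by role) in each library (columns, by mouse within the 4 groups), as log2(CPM + 0.1) minus the mean of the control libraries of the same chamber. Ccne1 and Ccnd2 are red in all 6 CUG960 libraries, Mcm2, Mcm5, Mcm7 and E2f1 are red in the 3 CUG960 ventricles, and the mitotic genes at the bottom vary by mouse in both genotypes.

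Ccne1 encodes cyclin E1, the partner of Cdk2 at the start of S phase (ENSMUSG00000002068.16, chromosome 7, 38097984 to 38107534, minus strand, GRCm38). In atria it was at 0.649, 0.751 and 0.860 CPM in controls and at 3.40, 3.53 and 3.94 CPM in CUG960 mice. Ventricular values were 1.69, 2.34 and 1.75 CPM in controls and 10.7, 10.2 and 10.4 CPM in CUG960 mice. In each chamber the CUG960 libraries lay far above the controls and close to one another. The change on the log2 scale was 2.26 ± 0.15 (SE) in atria (adjusted P = 1.6e-04, edgeR) and 2.43 ± 0.14 in ventricles (adjusted P = 2.5e-05, edgeR). The difference between the chambers was −0.18, with a 95% interval from −0.61 to 0.26 (adjusted P = 0.80, edgeR). Its sister gene Ccne2 did not pass in either chamber (log2 fold change 0.00 in atria, −0.28 in ventricles), although its 3 CUG960 ventricles (3.59 to 3.71 CPM) were all below the controls (3.88 to 4.80 CPM).

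Ccnd2 encodes cyclin D2, which activates Cdk4 and Cdk6 in G1 (ENSMUSG00000000184.12, chromosome 6, 127125162 to 127152193, minus strand). Control atria had 122.9, 126.0 and 110.5 CPM and CUG960 atria 170.8, 211.6 and 246.4 CPM. Control ventricles had 87.5, 81.9 and 108.6 CPM and CUG960 ventricles 261.1, 273.1 and 299.0 CPM. The groups did not overlap in either chamber, and per kilobase of exon Ccnd2 went from rank 3 of the 40 genes in control atria and rank 4 in control ventricles to rank 1 in both chambers of CUG960 mice. Its log2 fold change was 0.80 ± 0.12 in atria (adjusted P = 0.0052, edgeR) and 1.58 ± 0.11 in ventricles (adjusted P = 8.3e-05, edgeR). The span of the Ccnd2 gene, introns included, overlaps that of the antisense transcript Gm43126 by 994 bases and that of 9330179D12Rik by 2805 bases. Overlap of exons was not measured. Gm43126, at 0.671 to 6.70 CPM, also rose in ventricles, by 1.55 on the log2 scale (adjusted P = 0.012, edgeR). Whether the counting used strand is not given in the sources used here, so reads of any shared exon cannot be told apart.

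The other D cyclins did not follow Ccnd2. Ccnd1, cyclin D1, was at 22.3, 19.0 and 18.1 CPM in control atria and at 15.8, 13.6 and 13.1 CPM in CUG960 atria, without overlap. It fell by 0.49 on the log2 scale (adjusted P = 0.019, edgeR), which is short of the fold limit. In ventricles the levels were 53.7, 42.4 and 39.6 CPM in controls and 48.8, 40.7 and 45.6 CPM in CUG960 mice, with overlap and a log2 fold change of −0.01 (95% interval −0.28 to 0.26). Ccnd3, cyclin D3, had a log2 fold change of 0.17 in atria (adjusted P = 0.12, edgeR) and one of 0.06 in ventricles (adjusted P = 0.69, edgeR).

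Among the G1 kinases, Cdk6 (ENSMUSG00000040274.11, chromosome 5, 3341485 to 3531008, plus strand) was at 9.11, 7.67 and 9.77 CPM in control ventricles and at 5.76, 5.26 and 5.49 CPM in CUG960 ventricles. All 3 CUG960 ventricles were below all controls. It fell by 0.69 on the log2 scale in ventricles (SE 0.12, adjusted P = 0.0076, edgeR). In atria the values were 11.0, 10.4 and 9.73 CPM in controls and 7.24, 6.60 and 9.16 CPM in CUG960 mice, again without overlap, with a log2 fold change of −0.44 (adjusted P = 0.052, edgeR). The difference between chambers was 0.25, with an interval from −0.14 to 0.63. Without V123 the atrial call was made as well, at −0.60 (adjusted P = 0.011, edgeR). In 5 of 6 fits without 1 mouse the atrial adjusted P value was over 0.05, up to 0.16 without V119 (edgeR). Over the 6 fits the atrial log2 fold change ranged from −0.60 to −0.35. The Cdk6 gene span overlaps those of the antisense genes Gm17590 (8013 bases) and Gm42435 (1448 bases), which were too low to be tested. Cdk4, the other partner of the D cyclins, was at 51.7, 52.5 and 51.5 CPM in control atria and 57.8, 55.0 and 49.3 CPM in CUG960 atria. The ventricles held 58.7, 59.6 and 47.8 CPM in controls and 56.7, 57.2 and 56.1 CPM in CUG960 mice. The groups overlapped in both chambers, and the log2 fold changes were 0.05 (interval −0.11 to 0.21) and 0.03 (interval −0.18 to 0.24). Cdk2, the kinase partner of cyclin E1, had a log2 fold change of 0.43 in atria (9.40 to 10.8 CPM in controls and 13.7 to 14.3 CPM in CUG960 mice, adjusted P = 0.012, edgeR), short of the fold limit, and one of 0.05 in ventricles. The Cdk2 gene span overlaps by 837 bases that of Pmel on the other strand, which was at 0.98 in atria (adjusted P = 0.055, edgeR).

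**Figure D2:**
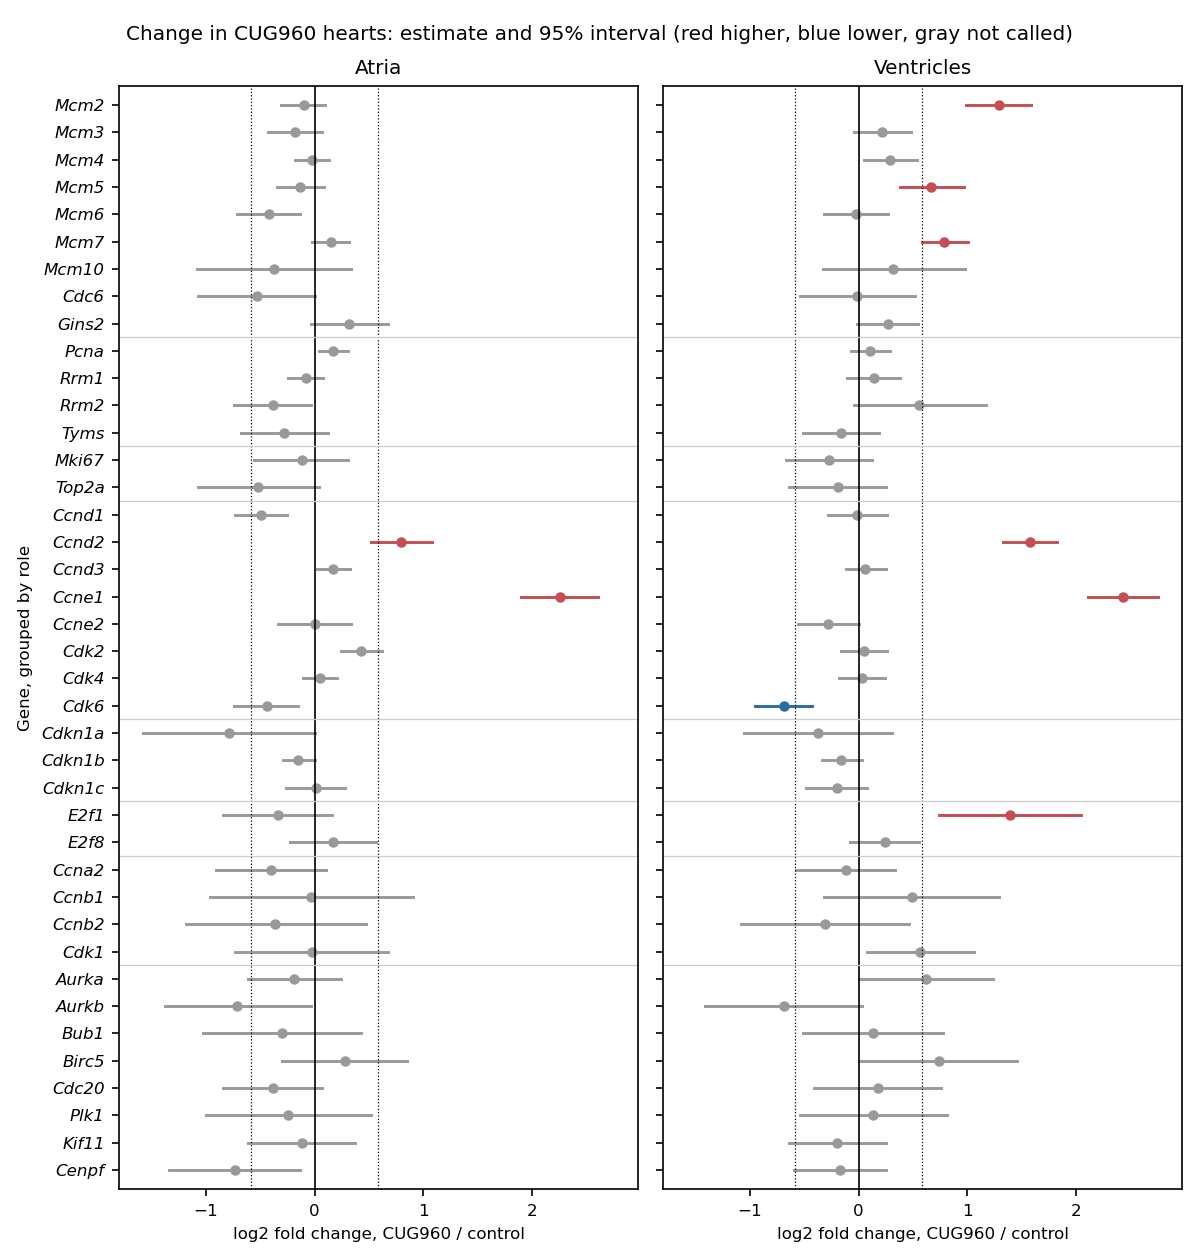
Log2 fold change of CUG960 over control (points) with its 95% interval (lines) for each gene in atria (left) and ventricles (right), with dotted lines at a fold change of 1.5 in either direction. Only Ccnd2 and Ccne1 are red in both panels, and Mcm2, Mcm5, Mcm7 and E2f1 are red and Cdk6 blue in ventricles.

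E2f1, a transcription factor that activates replication genes (ENSMUSG00000027490.17, chromosome 2, 154559407 to 154569892, minus strand), was at 1.34, 1.69 and 1.32 CPM in control ventricles and at 3.28, 5.78 and 2.41 CPM in CUG960 ventricles. All CUG960 ventricles were above the controls, and V120 was the highest. The log2 fold change was 1.39 ± 0.29 (adjusted P = 0.019, edgeR). The call was lost when a control was left out, at an adjusted P value of 0.066 without V327 and 0.054 without V334. In atria E2f1 was at 1.08, 1.08 and 1.27 CPM in controls and 0.973, 1.09 and 0.650 CPM in CUG960 mice, with a log2 fold change of −0.34 (adjusted P = 0.34, edgeR). E2f8, an E2F that represses the same class of genes, passed in neither chamber, at 0.17 in atria and 0.24 in ventricles on the log2 scale.

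The MCM2-7 proteins form the ring that unwinds DNA at the replication fork. Mcm2 (ENSMUSG00000002870.8, chromosome 6, 88883474 to 88898780, minus strand) was at 5.79, 4.94 and 5.44 CPM in control ventricles and at 15, 13.8 and 10.9 CPM in CUG960 ventricles. In atria it was at 7.59, 7.04 and 6.75 CPM in controls and at 6.64, 6.33 and 7.01 CPM in CUG960 mice. The groups stood apart in ventricles and overlapped in atria. The change on the log2 scale was 1.29 ± 0.13 in ventricles (adjusted P = 5.4e-04, edgeR) and −0.10 ± 0.09 in atria (adjusted P = 0.48, edgeR).

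Mcm7 (ENSMUSG00000029730.16, chromosome 5, 138164583 to 138172422, minus strand) was at 9.41, 8.88 and 8.78 CPM in control ventricles and at 16.4, 16.4 and 14.2 CPM in CUG960 ventricles. In atria it was at 11.4, 10.7 and 10.6 CPM in controls and at 12.7, 11.9 and 11.7 CPM in CUG960 mice. The groups did not overlap in either chamber, but the atrial gap was small. Its log2 fold change was 0.79 ± 0.10 in ventricles (adjusted P = 0.0014, edgeR) and 0.15 ± 0.07 in atria (adjusted P = 0.22, edgeR). The Mcm7 gene span overlaps those of the opposite-strand genes Ap4m1 (421 bases) and Cops6 (64 bases), neither of which was called. The processed pseudogene of Mcm7, Gm5487, 97.7% identical over 2157 bases, was not analysed here.

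Mcm5 (ENSMUSG00000005410.6, chromosome 8, 75109569 to 75128439, plus strand) was at 4.72, 4.16 and 4.84 CPM in control ventricles and at 8.36, 7.38 and 6.23 CPM in CUG960 ventricles. In atria it was at 4.83, 4.74 and 5.30 CPM in controls and at 4.48, 4.47 and 4.69 CPM in CUG960 mice. The CUG960 libraries lay above the controls in ventricles and just below them in atria. The log2 fold change was 0.67 ± 0.13 in ventricles (adjusted P = 0.014, edgeR), and the call was lost without V119 (log2 fold change 0.57) and without V120 (adjusted P = 0.050). In atria it was −0.13 ± 0.10 (adjusted P = 0.41, edgeR).

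The other licensing and helicase genes did not pass. In ventricles Mcm3, Mcm4 and Mcm6 had log2 fold changes of 0.22, 0.29 and −0.02. Mcm10, Cdc6 and Gins2, which act in firing or loading of origins, had 0.32, −0.01 and 0.27. In atria the 9 genes ranged from −0.53 for Cdc6 to 0.32 for Gins2. Per kilobase of exon, the mean levels of the 6 MCM2-7 subunits in control ventricles ran from Mcm4 (2.84 CPM per kb) through Mcm7 (2.04), Mcm3 (1.63), Mcm5 (1.14) and Mcm6 (0.899) to Mcm2 (0.775). Among the same 6 subunits in CUG960 ventricles, Mcm7 (3.54 CPM per kb) and Mcm4 (3.49) led, Mcm3 (1.91), Mcm2 (1.90) and Mcm5 (1.83) were within their SD of one another, and Mcm6 (0.888) was lowest. The other licensing genes were at 2.46 (Gins2), 0.149 (Cdc6) and 0.0548 (Mcm10) CPM per kb in control ventricles. The Gins2 gene span overlaps that of the opposite-strand gene Gm20388 by 10672 bases. Gm20388, at 41.3 to 62.8 CPM, was not called by genotype in either chamber or between control chambers.

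**Figure D3:**
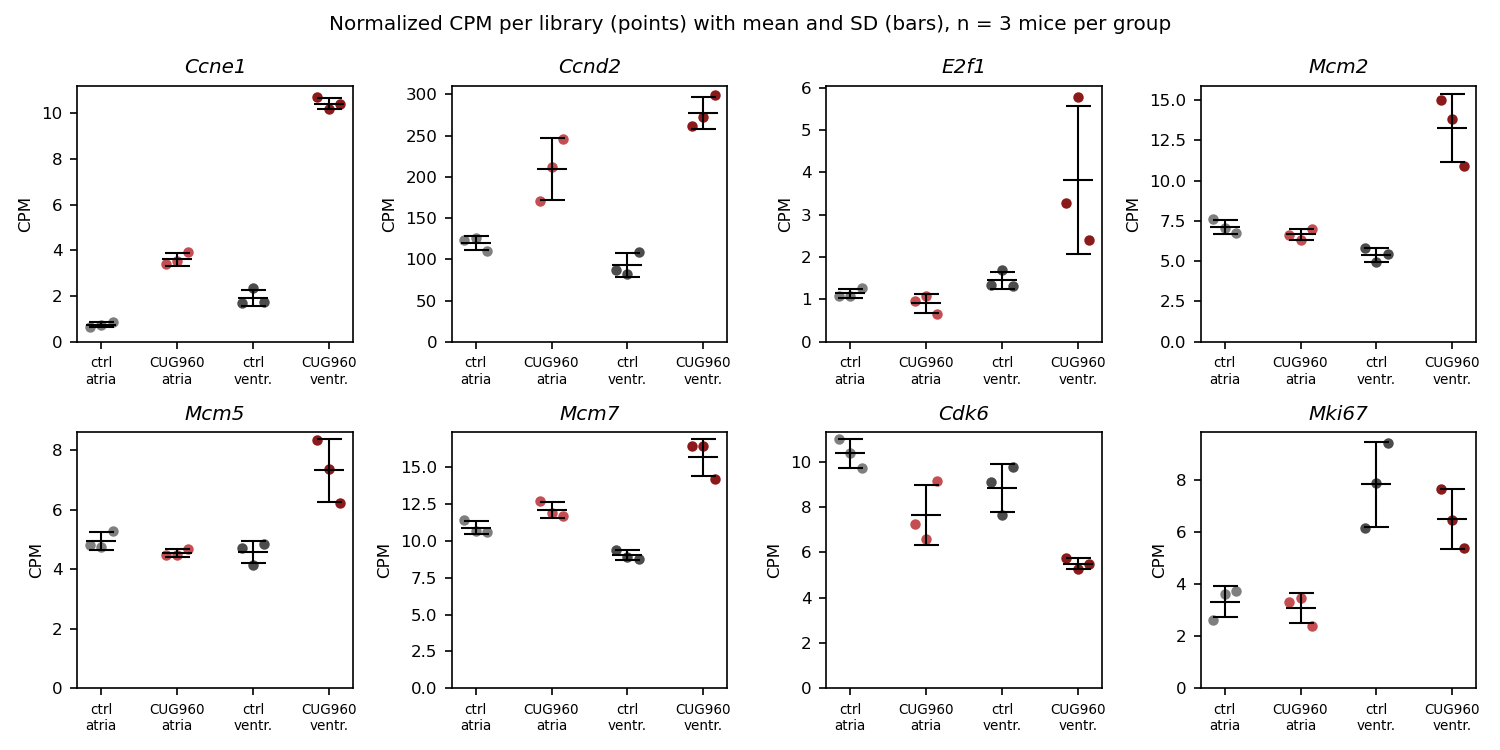
CPM (linear axes from 0) of 8 genes in each library (points) with the mean and SD of the 3 mice per group (bars), for control and CUG960 atria and ventricles. Mcm2, Mcm5, Mcm7 and E2f1 are raised in CUG960 ventricles without a matching rise in atria, whereas Ccne1 and Ccnd2 are raised in both chambers and Mki67 is higher in ventricles than in atria in both genotypes.

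The chamber by genotype interaction tested whether the genotype effect differed between chambers, over all 12 libraries. It was called, at an adjusted P value under 0.05 with no fold limit, for 1.38% of 18327 genes, and for 0.693% with a change more positive in ventricles. Of the 40 genes 3 were called, all with the change more positive in ventricles. The median over the 40 genes was −0.35, beside 0.00 over all genes tested. The log2 fold change in atria minus that in ventricles was −1.39 ± 0.16 for Mcm2 (adjusted P = 0.0018, edgeR), −0.64 ± 0.11 for Mcm7 (adjusted P = 0.016, edgeR) and −0.80 ± 0.16 for Mcm5 (adjusted P = 0.031, edgeR). Ccnd2 (−0.78) and E2f1 (−1.73) both had an adjusted P value of 0.061 (edgeR). With the mouse as a replicate block 6 genes were called, the 3 MCM genes and Ccnd2 (adjusted P = 0.039), E2f1 (adjusted P = 0.016) and Ccnd1 (adjusted P = 0.048), all by edgeR, while of all 18327 genes 1.82% were called in that fit, beside 1.38% without the block. Leaving out a mouse at a time, Mcm2 kept its call in 6 of 6 fits, while Mcm5 (adjusted P = 0.096 to 0.15) and Mcm7 (0.059 to 0.096) kept it only without V123.

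The promoters of the MCM genes are shown because E2F factors are known to bind promoters of this family. Mcm5, Mcm7 and Mcm2 were called in ventricles and Mcm6 was not, and the set was chosen after the values were seen. They are the 250 bases before the annotated start, 5′ to 3′ on the strand of the gene, from RefSeq (GRCm38.p6): Mcm5 at chr8:75109259-75109508 (plus strand), Mcm7 at chr5:138171884-138172133 (minus strand, the window of its 2 with more matches), Mcm6 at chr1:128359706-128359955 (minus strand) and Mcm2 at chr6:88898781-88899030 (minus strand). Capitals mark the words TTTCGCGC, TTTGGCGC, TTTCCCGC and TTTGCCGC, which are forms of the E2F site, on either strand.
Mcm5: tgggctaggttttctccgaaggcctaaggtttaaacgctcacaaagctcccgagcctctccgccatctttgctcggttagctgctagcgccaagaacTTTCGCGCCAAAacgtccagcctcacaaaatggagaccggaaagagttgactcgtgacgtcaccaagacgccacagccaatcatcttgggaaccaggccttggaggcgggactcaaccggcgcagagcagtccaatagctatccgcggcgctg
Mcm7: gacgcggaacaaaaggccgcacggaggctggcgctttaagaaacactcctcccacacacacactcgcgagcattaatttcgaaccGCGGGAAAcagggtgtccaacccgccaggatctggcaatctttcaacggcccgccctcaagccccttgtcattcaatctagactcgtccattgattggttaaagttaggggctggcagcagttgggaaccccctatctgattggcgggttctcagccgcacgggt
Mcm6: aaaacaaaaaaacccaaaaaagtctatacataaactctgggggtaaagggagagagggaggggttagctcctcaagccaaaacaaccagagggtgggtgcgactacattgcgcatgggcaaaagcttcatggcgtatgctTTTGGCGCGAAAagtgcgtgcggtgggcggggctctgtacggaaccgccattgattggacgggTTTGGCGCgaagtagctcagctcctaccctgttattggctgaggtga
Mcm2: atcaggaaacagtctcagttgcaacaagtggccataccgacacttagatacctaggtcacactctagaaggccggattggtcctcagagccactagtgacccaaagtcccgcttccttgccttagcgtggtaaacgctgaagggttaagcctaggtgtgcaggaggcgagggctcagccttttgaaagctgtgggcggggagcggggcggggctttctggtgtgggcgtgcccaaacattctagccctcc

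Windows of 300 bases, 250 before and 50 after the start, were given for 32 of the 40 genes, and the words were searched in these. Mcm5 held 2 words that overlap each other, starting 153 and 149 bases before the start. Mcm6, which was not called, held 3, starting 110, 106 and 47 bases before the start, the first of which overlaps the next. Mcm7 held 1 at 165 bases before the start and 1 shortly after it, and Mcm3 held 2 after the start. Mcm2, which had the largest change of the MCM genes in ventricles, held none, and neither did Ccne1, E2f1 or Cdk6. In all, 7 of the 32 genes (21.9%) held a word (Cdc6, Cdk1, Cdk2, Mcm3, Mcm5, Mcm6 and Mcm7), beside 2.60% of 27025 genes with windows. The words were chosen after the expression values were seen, and in steps: TTTCGCGC and TTTGGCGC alone gave 5 of 32 genes (15.6%, beside 0.929% of all genes), TTTCCCGC and TTTGCCGC alone gave 4 of 32 (12.5%, beside 1.73%), and the searches were then joined. CCAAT, a word common in promoters of mitotic genes, was in 24 of 32 genes (75%, beside 41.1%), and TTTGAA, the core of the element found in many G2/M promoters, in 11 of 32 (34.4%, beside 20.2%), on either strand. A match describes the letters only, and the absence of these words says nothing of whether a factor binds.

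Of the 4 fork and nucleotide genes 0 were called by edgeR or DESeq2 in either chamber, with 2 in atria and 0 in ventricles at an unadjusted P value under 0.05, which 30.2% and 25.7% of all genes reached. Pcna, the sliding clamp of the DNA polymerases, was at 39.0, 35.7 and 37.7 CPM in control atria and 42.9, 43.8 and 40.7 CPM in CUG960 atria. In ventricles it was at 43.8, 47.4 and 41.0 CPM in controls and 49.9, 46.5 and 46.4 CPM in CUG960 mice. The atrial groups stood apart by a small margin and the ventricular groups overlapped, with log2 fold changes of 0.17 (adjusted P = 0.090, edgeR) and 0.11 (adjusted P = 0.45, edgeR). Rrm1 and Rrm2, the subunits of ribonucleotide reductase, were at 0.14 and 0.56 in ventricles on the log2 scale, where Rrm2 was led by V120 at 6.64 CPM, and −0.08 and −0.38 in atria. Tyms, thymidylate synthase, had −0.28 and −0.16 in atria and ventricles.

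Of the 14 proliferation markers and mitotic genes 0 were called in either chamber by edgeR, with 2 in each chamber at an unadjusted P value under 0.05, beside 30.2% of all genes in atria and 25.7% in ventricles. Their median log2 fold change was −0.27 in atria, where 13 of the 14 were below 0, and 0.005 in ventricles, where 7 were above 0 and 7 below. DESeq2 called Cenpf lower in atria. Mki67, present in cycling cells, was at 2.64, 3.63 and 3.73 CPM in control atria and 3.33, 3.48 and 2.41 CPM in CUG960 atria. Ventricular values were 6.17, 7.90 and 9.44 CPM in controls and 7.67, 6.45 and 5.38 CPM in CUG960 mice. The groups overlapped in both chambers, and the log2 fold changes were −0.12 (95% interval −0.56 to 0.31) and −0.27 (interval −0.67 to 0.12). Top2a, the topoisomerase that untangles chromosomes, was at 1.86, 2.56 and 2.67 CPM in control atria and 1.71, 2.12 and 1.15 CPM in CUG960 atria. In ventricles the levels were 4.09, 5.50 and 6.11 CPM in controls and 5.44, 4.89 and 3.43 CPM in CUG960 mice. Its groups also overlapped, with log2 fold changes of −0.52 (interval −1.07 to 0.04) and −0.19 (interval −0.64 to 0.25).

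Cdk1, the kinase that drives mitosis, was at 0.892, 1.13 and 1.12 CPM in control atria and 0.910, 1.55 and 0.635 CPM in CUG960 atria. The ventricles held 1.82, 2.62 and 2.73 CPM in controls and 3.61, 4.44 and 2.65 CPM in CUG960 mice. The ranges overlapped in both chambers, with log2 fold changes of −0.02 (adjusted P = 0.97, edgeR) and 0.57 (adjusted P = 0.13, edgeR). Its partner Ccnb1, cyclin B1, was at 0.367, 0.402 and 0.376 CPM in control atria and 0.280, 0.646 and 0.199 CPM in CUG960 atria. In ventricles it was at 0.665, 1.07 and 0.979 CPM in controls and 1.10, 2.0 and 0.710 CPM in CUG960 mice. V120 was the highest CUG960 library in both chambers, the groups overlapped, and the log2 fold changes were −0.03 (interval −0.96 to 0.91) and 0.49 (interval −0.32 to 1.29). Ccnb1 has processed pseudogenes up to 99.2% identical over 1287 bases, so its counts are uncertain. Ccnd3, Cdc6, Pcna and Rrm2 also have such copies, that of Pcna 99.2% identical over 781 bases, and the same limit holds for them. The other mitotic kinases, spindle and checkpoint genes ranged from −0.73 (Cenpf) to 0.28 (Birc5) in atria and from −0.69 (Aurkb) to 0.74 (Birc5) in ventricles, and the smallest adjusted P values were 0.10 and 0.19 (edgeR).

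Mki67, Top2a, the 4 mitotic cyclins and Cdk1, and the 8 mitotic kinases, spindle and checkpoint genes, 14 in all, varied by mouse within each genotype. V123 had the lowest value of the CUG960 mice for 14 of the 14 genes in atria and for 14 of 14 in ventricles. V120 had the highest for 12 of 14 in atria and 10 of 14 in ventricles. Among controls V327 was lowest for 10 of 14 in atria and 13 of 14 in ventricles. The genes of this block share the same libraries and are not independent of one another, and this pattern was noticed after the values were seen. The V123 ventricles are also the library with the raised atrial markers, whose part in these values was not tested, and its atria, also the lowest for these genes, had Myl2 at 9.06 CPM. The V123 atria stood apart from the V119 and V120 atria in other markers. Their epicardial sum was 181 CPM against 305 and 279 CPM (Upk3b, the most abundant, 96.3 against 165 and 152 CPM), and their smooth muscle and pericyte sum was 724 CPM against 568 and 512 CPM (Tagln 73.5 against 48.6 and 34.6 CPM). The part of these markers in the low values was not tested.

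Of the 3 inhibitors of cyclin-dependent kinases 0 were called by edgeR or DESeq2, with 1 in atria and 0 in ventricles at an unadjusted P value under 0.05 (all genes 30.2% and 25.7%). Cdkn1a, or p21, was at 10.6, 17.2 and 31.5 CPM in control atria and 10.7, 14.1 and 9.74 CPM in CUG960 atria. Ventricular values were 12.9, 16.4 and 31.3 CPM in controls and 11.7, 20.3 and 15 CPM in CUG960 mice. V334 was highest in both chambers, and the groups overlapped, with log2 fold changes of −0.79 (interval −1.58 to 0.00) and −0.37 (interval −1.05 to 0.31). The atrial library of V334 also stood apart in the summed macrophage markers (753 CPM against 368 and 411 CPM in the other control atria) and erythroid markers (2765 CPM against 323 and 515 CPM), whose part in Cdkn1a was not tested. Cdkn1b, or p27, was at 46.0, 41.4 and 43.1 CPM in control atria and 37.6, 41.9 and 39.0 CPM in CUG960 atria, and at 30.3, 34.9 and 32.2 CPM in control and 30.5, 29.5 and 27.7 CPM in CUG960 ventricles. Its groups overlapped, with log2 fold changes of −0.15 (interval −0.29 to 0.00) and −0.16 (interval −0.34 to 0.03). Cdkn1c, or p57, was at 12.8, 15.2 and 13.6 CPM in control atria and 15.6, 14.6 and 11.8 CPM in CUG960 atria, and at 18.6, 22.6 and 25.7 CPM in control and 21.1, 17.8 and 19.7 CPM in CUG960 ventricles. It overlapped as well, at 0.01 (interval −0.26 to 0.28) and −0.20 (interval −0.48 to 0.08).

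Without the fold limit, 4 of the 40 genes passed in atria (14.6% of all genes did) and 7 in ventricles (9.94%). Groups of 3 did not overlap for 14 of the 40 genes in atria and 11 in ventricles, beside 35.7% and 31.2% of all genes tested.

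The control hearts alone were compared to describe the genes without the transgene. Of the 40 genes 17 were called higher in ventricles and 0 higher in atria (edgeR), with a median log2 fold change of −0.45 beside 0.03 over all genes tested. Over all genes 16.6% of 17451 were higher in ventricles and 18.3% higher in atria. At an unadjusted P value under 0.05, 29 of the 40 genes differed in either direction, beside 61.1% of all genes. Without the fold limit 20 were higher in ventricles and 7 in atria, beside 27.5% and 28.3% of all genes. DESeq2 called 18 genes higher in ventricles and 0 in atria, beside 2932 and 3048 of all 17451 genes. Tyms, 0.58 higher in atria on the log2 scale, was just under the fold limit and was called higher in atria in edgeR fits with upper quartile scaling, no filter, a 10-count filter or all 12 libraries, and without V333. The genotype comparisons use the same control libraries.

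The largest difference was in Cenpf, a kinetochore protein, at 0.944, 1.31 and 1.11 CPM in atria and 12.8, 13.8 and 12.4 CPM in ventricles. The chambers were far apart, by 11.7-fold (log2 fold change of atria over ventricles −3.54 ± 0.14, adjusted P = 4.4e-07, edgeR). Bub1, a spindle checkpoint kinase, was at 0.216, 0.270 and 0.261 CPM in atria and 0.459, 0.832 and 0.659 CPM in ventricles, without overlap (−1.39 ± 0.29, adjusted P = 0.0040, edgeR). Ccne1, whose values are given above, differed by −1.36 ± 0.21 (adjusted P = 6.5e-04, edgeR). E2f8 was at 0.879, 0.757 and 0.994 CPM in atria and 2.29, 2.03 and 2.18 CPM in ventricles, without overlap (−1.32 ± 0.17, adjusted P = 2.6e-04, edgeR). Ccnb2, cyclin B2, was at 0.479, 0.436 and 0.618 CPM in atria and 0.818, 1.5 and 1.46 CPM in ventricles, without overlap (−1.31 ± 0.29, adjusted P = 0.0046, edgeR), and its adjusted P value was 0.058 without V333. Apart from Cenpf, the called genes lay between 1.56-fold (Gins2) and 2.62-fold (Bub1) higher in ventricles. Of the 14 mitotic genes, Mki67 and Top2a included, 10 were called higher in ventricles, beside 16.6% of all genes. Mcm2, Mcm4 and Mcm7 went the other way, at log2 values of 0.39, 0.44 and 0.26, which passed the test but not the fold limit.

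**Figure D4:**
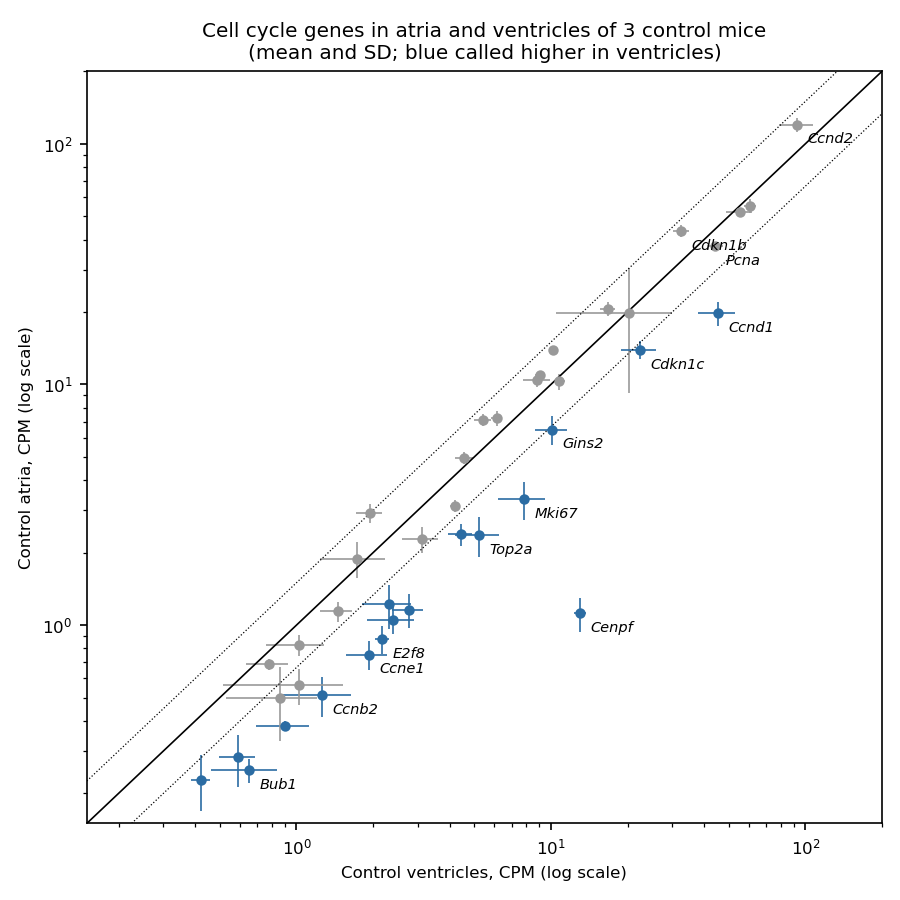
Mean CPM of each of the 40 genes in control ventricles (horizontal, log scale) and control atria (vertical, log scale), with SD of 3 mice as bars, a solid line of equality and dotted lines at 1.5-fold. The 17 called genes (blue) all lie below the line, at higher levels in ventricles, and Cenpf lies farthest from it.

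Markers of other cells also differed between the control chambers, where 18.3% of all genes were called higher in atria and 16.6% higher in ventricles (edgeR). Fibroblast markers were higher in atria for 7 of 10 genes (summed level 8475 ± 747 CPM in atria and 3370 ± 190 CPM in ventricles, SD, n = 3, with Gsn the most abundant), macrophage markers for 10 of 10 (510 ± 211 and 186 ± 23.9 CPM, Lyz2) and epicardial markers for 6 of 7 (278 ± 12.4 and 21.2 ± 0.177 CPM, Upk3b). Endothelial markers were higher in ventricles for 4 of 10 and in atria for 2 of 10 (1105 ± 133 and 1129 ± 71.7 CPM, Eng). Smooth muscle and pericyte markers were called higher in ventricles for 6 of 10 and in atria for 1 of 10 (622 ± 59.4 and 1327 ± 58.7 CPM, Rgs5). No marker of these lists was at 0 in every library, and their part in the chamber difference was not tested.

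Between genotypes, endothelial markers moved too. Their summed level in atria was 1090, 1245 and 980 CPM in controls and 818, 890 and 805 CPM in CUG960 mice, and in ventricles 1199, 1056 and 1130 CPM in controls and 826, 817 and 867 CPM in CUG960 mice. The sums were lower in all CUG960 libraries of each chamber, and of the 10 markers 4 in atria and 6 in ventricles were lower at an adjusted P value under 0.05, beside 6.62% and 4.20% of all genes lower at that threshold. Past the fold limit 2 of them were called lower in each chamber, beside 2.12% and 1.76% of all genes (edgeR). Smooth muscle and pericyte markers were lower at an adjusted P value under 0.05 for 6 of 10 in ventricles, from 1327 ± 58.7 to 1039 ± 33.5 CPM summed, with Rgs5 the most abundant. In atria that list was mixed, with Tagln called higher (log2 fold change 1.21) and 3 of 10 lower at the adjusted threshold. Adipocyte markers were called lower for 4 of 8 in ventricles (beside 1.76% of all genes), with a median log2 fold change of −1.53 and all 8 at an unadjusted P value under 0.05 (beside 25.7%), and for 0 of 8 in atria (1 at an unadjusted P value under 0.05, edgeR). Their sum (over the 12 libraries 88.3% Lpl) was 4455 ± 133 CPM in control and 3569 ± 206 CPM in CUG960 ventricles. In the same order Lpl was at 3872 and 3185 CPM and Fabp4 at 576 and 381 CPM. Cfd, the highest of the other markers there, was at 2.48 and 0.660 CPM. The sum therefore follows Lpl and Fabp4 and does not measure the other markers of the list. Of the Schwann cell and neuron markers 2 of 7 tested were called lower in atria and 2 of 6 in ventricles, beside 2.12% and 1.76% of all genes. Of 10 skeletal muscle markers, 6 tested in each chamber, Ckm, Tnnt3 and Tnni2 were called lower in atria and Pvalb higher in ventricles (edgeR). Over all genes 2.12% were called lower in atria and 3.0% higher in ventricles. Mean Ckm in atria was 766 CPM in controls and 509 CPM in CUG960 mice. Tnnt3 (0.637 and 0.153 CPM), Tnni2 (0.698 and 0.276 CPM) and, in ventricles, Pvalb (0.0156 and 0.266 CPM) were under 1 CPM. Of 7 epicardial markers Aldh1a2 was called lower in ventricles and 0 in atria (edgeR, 2 in atria at an unadjusted P value under 0.05). Erythroid markers were called for 0 of 7 in atria, with a median log2 fold change of −1.71 and 5 at an unadjusted P value under 0.05 (edgeR). Their sum in atria was 515, 323 and 2765 CPM in V327, V333 and V334 and 441, 324 and 354 CPM in CUG960 mice, so that V334 alone was high. The part of these lists in the values of the cell cycle genes was not tested. Of the 10 fibroblast markers 3 were lower in atria at an adjusted P value under 0.05 (edgeR, beside 6.62% of all genes), none past the fold limit. All 10 had atrial log2 fold changes below 0, from −0.50 to −0.18 with a median of −0.28. Of these 8 had an unadjusted P value under 0.05, beside 30.2% of all genes. In ventricles 0 of the 10 passed, 3 had an unadjusted P value under 0.05 (25.7% of all genes did), and the median was 0.01. Of the 10 macrophage markers 0 passed in either chamber (edgeR). At an unadjusted P value under 0.05 there were 0 in atria and 1 in ventricles, beside 30.2% and 25.7% of all genes. The cardiomyocyte markers, led by Myh6, summed to 45506 ± 1241 CPM in control and 47788 ± 932 CPM in CUG960 ventricles, and Myh6 made up 61.6% of the sum over the 12 libraries. The median over its 8 genes was −0.05 in ventricles, where Ryr2 was called lower (865, 647 and 943 CPM in controls and 540, 471 and 535 CPM in CUG960 mice) and 0 were called higher. In atria the sum was 38074 ± 571 CPM in control and 41284 ± 869 CPM in CUG960 mice and the median −0.15, and 0 were called, while at the adjusted threshold alone Myh6 and Pln were higher and Ryr2 lower (edgeR, 5 of 8 at an unadjusted P value under 0.05).

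Other genes of the same pathways were described from lists of 177 genes, all found in the table. Of 46 further replication genes 0 were called in atria by edgeR, where 10 had an unadjusted P value under 0.05 (30.2% of all genes did). In ventricles 2 of the 46 were called, both higher, beside 3.0% of all genes. These were Pole, the catalytic subunit of DNA polymerase ε, and Chaf1a, a subunit of the chromatin assembly factor that follows the fork. Pole was at 1.52, 2.21 and 2.43 CPM in control ventricles and 4.16, 3.80 and 2.86 CPM in CUG960 ventricles (log2 fold change 0.81 ± 0.21, adjusted P = 0.040, edgeR). Chaf1a was at 1.84, 2.0 and 2.47 CPM and at 3.98, 3.39 and 2.94 CPM (0.70 ± 0.17, adjusted P = 0.032, edgeR). Neither overlapped between the groups. The median of the list was 0.10 in ventricles and 0.03 in atria.

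Of 18 regulators of the RB, E2F and DREAM pathway 1 was called lower in atria and 0 in ventricles (edgeR), beside 2.12% and 1.76% of all genes called lower. At an unadjusted P value under 0.05 there were 3 in atria and 5 in ventricles, beside 30.2% and 25.7% of all genes. Rb1, the retinoblastoma gene that holds E2F factors in check, was at 25.4, 22.9 and 23.8 CPM in control atria and 14, 14.5 and 17.1 CPM in CUG960 atria. In ventricles the levels were 32.1, 29.5 and 32.3 CPM in controls and 23.5, 20.1 and 23.4 CPM in CUG960 mice. CUG960 libraries were below controls in both chambers, by 0.67 on the log2 scale in atria (adjusted P = 0.0029, edgeR) and by 0.49 in ventricles (adjusted P = 0.011, edgeR), the last short of the fold limit. Of 28 other cyclins and kinases, 26 tested in atria and 25 in ventricles, Cdk16 alone was called, higher in both chambers, beside 3.37% and 3.0% of all genes. It rose from 138, 151 and 143 CPM to 281, 282 and 280 CPM in atria and from 145, 159 and 164 CPM to 279, 279 and 268 CPM in ventricles, with no overlap (log2 fold changes 0.96 and 0.81, adjusted P = 8.5e-05 and 3.0e-04, edgeR). Of 5 other inhibitors, 4 of them tested in each chamber, 0 were called by edgeR in either chamber, with 2 in atria and 1 in ventricles at an unadjusted P value under 0.05 (all genes 30.2% and 25.7%).

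Of 60 further genes of mitosis and cytokinesis 2 were called in atria and 4 in ventricles, all higher, beside 3.37% and 3.0% of all genes called higher, and the medians were −0.27 and 0.13. In atria these were Ect2, which sets up the cleavage furrow (0.741, 0.769 and 0.752 CPM in controls and 1.77, 2.48 and 1.88 CPM in CUG960 mice, log2 fold change 1.43), and Sgo2a, a protector of centromeric cohesin that the table names Sgol2a (0.72). In ventricles they were Ube2c, a ubiquitin-conjugating enzyme that works with the anaphase-promoting complex (1.44, 2.31 and 1.58 CPM in controls and 5.25, 5.60 and 3.53 CPM in CUG960 mice, 1.43), Cks2 (1.16), Spc25 (1.0) and Pttg1, or securin (0.84). The CUG960 libraries did not overlap the controls for any of these 6 genes in the chamber named, and for the 4 ventricular genes V123 was the lowest of the CUG960 mice.

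Of 20 targets of p53, 2 were called in atria, 1 in each direction (beside 3.37% of all genes called higher and 2.12% lower), and 4 in ventricles, all higher (beside 3.0%). Gadd45a, a stress-response gene, was at 3.12, 2.86 and 2.95 CPM in control atria and 7.14, 5.70 and 7.03 CPM in CUG960 atria, and at 10.5, 13.5 and 10.9 CPM in control and 28.3, 22.5 and 22.7 CPM in CUG960 ventricles. It rose in both chambers without overlap, by log2 fold changes of 1.15 (adjusted P = 9.8e-04, edgeR) and 1.07 (adjusted P = 0.0014, edgeR). Plk2 fell by 0.73 in atria, and Gdf15, Eda2r and Sesn2 rose in ventricles by 1.36, 0.99 and 0.72 on the log2 scale, while Cdkn1a, the p53 target among the 40 genes, was not called. For the interaction 0 of the pathway genes were called by edgeR, and 10 of 60 mitosis genes, 6 of 20 p53 targets, 5 of 46 replication genes, 1 of 26 other cyclins and CDKs, 1 of 5 other CDK inhibitors and 0 of 18 RB, E2F and DREAM regulators had an unadjusted P value under 0.05, beside 12.3% of all genes.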

How the data were processed

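The counts of 12 poly(A)-selected, stranded libraries were used. The authors aligned reads to GRCm38, estimated expected counts per gene with RSEM 1.3.1 (Ensembl annotation), and deposited them as whole numbers, unscaled and unfiltered. Columns of 12 libraries were mapped by title, and 92 symbols that repeat were kept apart. Depth is given with the results, and P values measure the spread between these mice. The 40 genes and all lists were chosen with earlier results of these data known.

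Genes kept by filterByExpr were tested on the whole table by edgeR 4.0.16 (R 4.3.3; TMM, quasi-likelihood test, Benjamini-Hochberg), in each chamber by genotype, in controls by chamber, and for the interaction over 12 libraries. The SE is the log2 fold change divided by the root of F. Exact permutation of 3 mice against 3 cannot go below p = 0.1, so it was not used. The steps were run on simulated counts, with set changes larger than several of those called here and with no gene at a low level changed. That run says nothing of smaller changes or of genes at low levels. Values in every library are given for called genes, for Mki67, Top2a, Pcna, Cdk1, Ccnb1, Ccnd1, Ccnd2, Cdk4, Cdkn1a, Cdkn1b and Cdkn1c whatever they showed, and, in the control libraries compared, for the 5 called genes with the largest chamber difference in each direction (none was called higher in atria); of each pathway list at most the 4 largest calls per chamber are named. The other genes named and the promoter words were chosen after their values were seen.

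Atria and ventricles come from the same mice, which pairs them: after group means were subtracted, same-mouse libraries correlated across genes at r between 0.06 and 0.35 (6 pairs) different mice of a genotype at r between −0.40 and 0.16 (12 pairs), and mice of different genotypes at r between −0.33 and 0.32 (18 pairs). Genotypes share no mice. Alternatives were DESeq2 1.42.0, RLE and upper quartile scaling, other filters and fold limits, 1 fit of all libraries, a block for the mouse, and fits that left out 1 mouse. Gene coordinates, exon lengths and overlaps of whole gene spans are from GENCODE M21 (GRCm38). Copies were sought among its transcripts at 400 bases and 95% identity or more. That annotation is later than the one used for counting. Promoters are from RefSeq (GRCm38.p6).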

Additional observations from a re-analysis of the deposited data

Results flagged for a closer look

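Mcm2, Mcm5 and Mcm7 were singled out because their genotype effects differed between atria and ventricles by the interaction test. The log2 fold change in atria minus that in ventricles was −1.39 for Mcm2, −0.80 for Mcm5 and −0.64 for Mcm7. In each case the 3 CUG960 ventricles lay above the 3 control ventricles, and the atrial change was between −0.13 and 0.15 on the log2 scale. Groups of 3 mice are too small for a test of single outlying libraries.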

How the results depend on the processing

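Counts of called genes changed as follows. At a log2 fold change of at least 1.5, which the study's methods also name, fewer genes pass. Of the 40 genes 1 was called in atria, 2 in ventricles and 1 between control chambers, beside 1.22%, 1.18% and 12.8% of all genes. With no fold limit 4 were called in atria and 27 between chambers, beside 14.6% and 55.7% of all genes. For the interaction DESeq2 called 6 (5 more positive in ventricles and Cdk2 more positive in atria), no filter on low counts 5 and the mouse as a replicate block 6, where these fits called 3.6% of 18327, 1.15% of 29861 and 1.82% of 18327 genes, beside 1.38% of 18327. Leaving out each mouse in turn gave 1 to 4 for the interaction, 2 to 3 in atria, 6 to 8 in ventricles and 14 to 15 between chambers, and over all genes 74 to 131 for the interaction (253 with all mice), 679 to 897 in atria (969), 558 to 737 in ventricles (804) and 5239 to 5995 between chambers (6098). Beyond the interaction, the block changed no call of the named genes and added Aurkb between chambers (18 called, beside 35% of all genes). Those causes were not tested. Of 772 refits of named genes 718 kept direction and side of the threshold, 16 lost it, 12 gained it and 26 turned sign, all 26 leaving out a mouse and all for genes not called. Over the fits without 1 mouse these log2 fold changes ranged, in atria, from −0.44 to 0.22 for Cdk1, −0.67 to 0.27 for Ccnb1, 0.00 to 0.11 for Cdk4, −0.08 to 0.11 for Cdkn1c and −0.27 to 0.02 for Mki67. In ventricles they ranged from 0.00 to 0.77 for Ccnb1, −0.10 to 0.13 for Ccnd1, −0.07 to 0.09 for Cdk4 and −0.60 to 0.10 for Cdkn1a. The interaction ranged from −0.03 to 0.11 for Cdk4, −0.09 to 0.10 for Cdkn1b and −0.03 to 0.12 for Pcna, and the chamber difference from −0.08 to 0.02 for Cdkn1a. Cdkn1a in atria was called without V327 (−1.10, adjusted P = 0.041, edgeR) and was at −0.29 without V334 (adjusted P = 0.47), and Cdkn1c between chambers fell under the fold limit without V334 (−0.57). Depth limits the genes under 1 CPM most, such as Ccnb1 and Bub1 in atria.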

Other observations

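Beside Cenpf, 3 genes of the pathway lists, chosen here after their values were seen, were far higher in control ventricles than in control atria: Sgo2a by 9.24-fold, Cdk18 by 8.62-fold and Gmnn, an inhibitor of origin licensing, by 7.54-fold (edgeR, adjusted P = 1.5e-06, 1.5e-07 and 4.0e-07). Over 60 further mitosis genes 25 were called higher in ventricles and 3 in atria, beside 16.6% and 18.3% of all genes. Cdk14 was 3.07-fold higher in atria.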
